A study of Neurospora crassa with 24 samples.

Results

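Loss of *msn-1* was examined in *Neurospora crassa* over the hours from 0 to 10 h of darkness, by setting each ΔMSN1 culture against the WT culture of the same time. The 12 libraries of these times, out of 24 in the series, were chosen by their labelled time alone: 6 of ΔMSN1 (strain FGSC #11345, *msn-1* (NCU02671) knocked out) and 6 of WT (strain FGSC #2489, wild type), at 0, 2, 4, 6, 8 and 10 h. All 12 came from liquid cultures in Vogel's medium with glucose, arginine and biotin, which were entrained for 2 days to cycles of 11 h of light and 11 h of darkness and then kept dark, so that 0 h is lights off. Each strain and time is 1 culture. The times therefore stand in for replicates, and the p-values measure the spread of the strain difference over times. The knockout is 1 strain, and a sequencing lane is named in the labels of ΔMSN1 alone, so *msn-1*, any other difference between these strains and the lane cannot be told apart.

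MSN1 is a DNA-binding protein that the study describes as the ortholog of Msn2 of budding yeast. In that yeast, Msn2 is a zinc finger transcription factor that enters the nucleus on heat, osmotic or oxidative stress and when glucose runs out, and switches on genes of stress defence and reserve carbohydrates. Protein kinase A, the kinase activated by cAMP, holds it in the cytoplasm while glucose is plentiful. The study used the knockout to ask whether clock output, rhythms of short period included, depends on this factor, and the genes of these processes are described here for the first 10 h after lights off.

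The libraries summed to 3450552 to 9829687 estimated counts in ΔMSN1 and to 4266504 to 8094126 in WT. Levels are given as CPM (counts scaled to a common library total) after TMM scaling, which sets libraries to a common level by the bulk of genes and does not correct for gene length, so levels of different genes are not compared. Of the deposited values of a library, 11.5 to 14.9% were whole numbers, 0 included. Over 645 genes the smallest value above 0 fell with gene length (r = −0.772, both as logarithms). The values are therefore not shown to be plain read counts, and how they were scaled is not stated. The 50 most abundant genes took 32.2 to 38.9% of the counts in ΔMSN1 and 39.2 to 42.3% in WT. Over the 7293 genes tested, which averaged 2 CPM or more, the log2 difference of a pair had its largest SDs at 6 h (0.566) and 8 h (0.593), against 0.406 to 0.488 at the other times. A gene's level relative to the other libraries was correlated across genes with its length, with r of −0.458 to 0.290 in ΔMSN1 libraries and −0.194 to 0.158 in WT libraries, and the part of this trend in single results was not tested beyond a fit with the trend removed.

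*msn-1* itself had 0 counts in all 6 ΔMSN1 libraries, against 27.9, 36.2 and 50.9 CPM as the lowest, median and highest of the 6 WT libraries. With 3 estimated counts over the ΔMSN1 group as the floor, on the scale of the deposited values, its level was at least 512-fold lower in ΔMSN1. The deleted gene thus matched its label in every library. NCU02670, which lies next to it, had 11.5, 20.2 and 30.3 CPM (lowest, median and highest) in ΔMSN1 and 4.28, 4.54 and 5.44 CPM in WT, with no overlap between the strains (log2 fold change 2.10 ± 0.18 SE, adjusted p = 7.14e-05, edgeR). It was the only one past the threshold among the 16 tested genes of the 10 on each side of *msn-1* (6.25%, against 6.73% of all tested genes).

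Of the 7293 genes, edgeR's quasi-likelihood test with time as a factor called 491 (6.73%) at an adjusted p under 0.05. In ΔMSN1 265 genes were higher (3.63% of those tested) and 226 lower (3.10%), with median log2 fold changes of 0.86 and −0.66. The changes of at least 2-fold were more often rises, with 101 genes higher and 47 lower, and at 4-fold or more there were 21 higher and 8 lower. The libraries of the strains did not overlap in 146 of the higher and 88 of the lower genes, while 4.42% of all tested genes had no overlap. The direction was the same in all 6 pairs for 242 of the higher genes and 210 of the lower ones, against 7.25% and 6.90% of all tested genes that were higher or lower in all pairs.

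These counts moved with the pairs included: they were 159 higher and 121 lower without the pair of 0 h, 133 and 75 without 4 h, 176 and 119 without 6 h, and 173 and 142 without 8 h. Scaled by library totals in place of TMM, the median gene was 0.211 higher in ΔMSN1 on the log2 scale and the split became 827 higher and 95 lower (89.7% higher, against 54.0%), so that the changes given here are changes relative to the bulk of genes. No gene changed sign between calls in any alternative.

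The largest rises were in genes that were close to 0 in WT. A ranking by fold change favours such genes, since 5 CPM or more was needed in 1 strain only. NCU09717 had 10.0, 15.4 and 19.5 CPM (lowest, median and highest) in ΔMSN1 and 0.171, 0.483 and 0.978 CPM in WT, a log2 fold change of 4.75 ± 0.24 SE (adjusted p = 3.54e-06). *gh7-4*, a gene of glycoside hydrolase family 7 (a family of cellulases), had 5.19, 7.04 and 8.93 CPM in ΔMSN1 and 0, 0.269 and 0.416 CPM in WT (log2 fold change 4.72 ± 0.29 SE, adjusted p = 1.40e-05). Both genes were raised in every ΔMSN1 culture from 0 h on, with a wide gap to the highest WT culture. NCU05105, the neighbour of *gh7-4*, had 9.27, 12.9 and 18.7 CPM in ΔMSN1 and 0.244, 0.539 and 0.929 CPM in WT (log2 fold change 4.40 ± 0.21 SE, adjusted p = 3.54e-06). The files and the gene table used give no function for NCU09717 or NCU05105, which lie next to other genes that rose.

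NCU05888 and its neighbour NCU05887 also rose, but with 1 WT culture apart from the rest. NCU05888 had 32.0, 38.4 and 89.0 CPM in ΔMSN1 and 0.531, 1.63 and 16.4 CPM in WT (log2 fold change 4.09 ± 0.55 SE, adjusted p = 0.00152). The WT value of 16.4 CPM was that of 2 h, where NCU05887 also stood at 5.87 CPM, against 0.422 to 0.856 CPM in the other WT cultures. NCU05887 was at 9.81 to 21.9 CPM in ΔMSN1 (log2 fold change 3.40 ± 0.43 SE, adjusted p = 0.000978). Even with that culture, neither gene overlapped between the strains.

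The remaining large rises ranged in log2 fold change from 2.28 (NCU08447) to 3.75 (NCU01383). NCU01383 was at 0 in 5 of the 6 WT libraries and at 2.72 CPM in the one of 4 h, while ΔMSN1 ran from 2.16 to 12.3 CPM, so this gene overlapped. NCU00031 was at 0 in WT up to 6 h and at 4.58 and 1.46 CPM at 8 and 10 h, against 3.51 to 17.7 CPM in ΔMSN1 (log2 fold change 3.42 ± 0.56 SE, adjusted p = 0.00506). Both are therefore less certain than the genes above, which were apart in all libraries. NCU05122, a hypothetical protein, stood higher throughout, at 55.0, 59.6 and 111 CPM in ΔMSN1 and 4.89, 7.31 and 14.3 CPM in WT (log2 fold change 3.07 ± 0.26 SE, adjusted p = 8.08e-05).

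**Figure D1:**
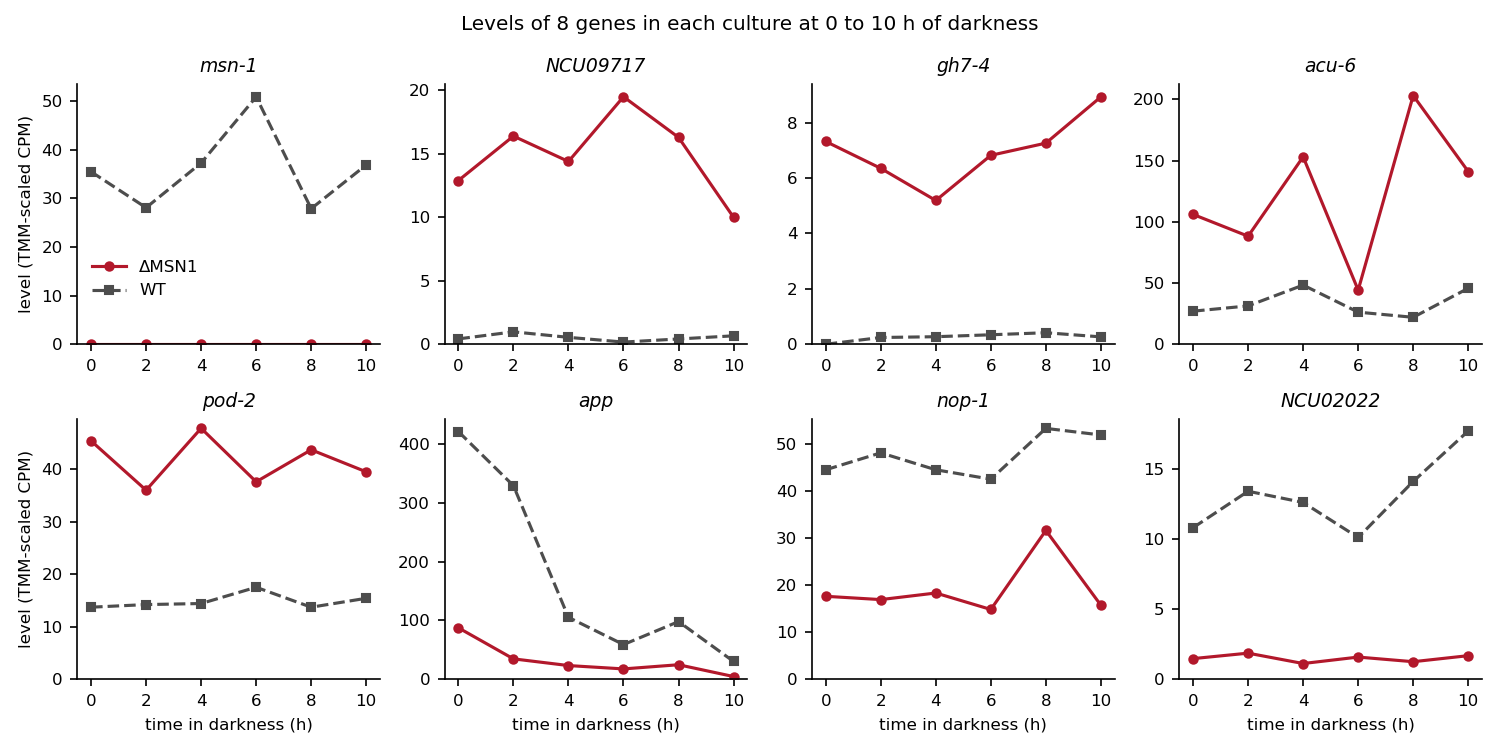
Level of 8 genes (vertical axes, TMM-scaled CPM) against time in darkness (horizontal axes, h), with 1 culture per point, ΔMSN1 as filled circles and WT as squares on a dashed line. *NCU09717*, *gh7-4*, *acu-6* and *pod-2* lay above WT and *app*, *nop-1* and *NCU02022* below it at all 6 times, and *msn-1* was at 0 in ΔMSN1.

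Genes that rose often stood side by side on a chromosome. Of the 265 higher genes, 53 (20.0%) lay next to another higher gene, and of all tested genes 5.22% lay next to a higher one. For the 226 lower genes the shares were 11.9% (27 genes) and 4.5%. Besides the pairs above, NCU09717 lay beside NCU09718 (log2 fold change 2.37 ± 0.15 SE, adjusted p = 1.71e-05) and NCU09719 (0.57 ± 0.15 SE, adjusted p = 0.0458), and NCU09185, NCU09186, NCU09187 and NCU09188 made up a run of 4. In that run, NCU09186 had 7.94 to 15.9 CPM in ΔMSN1 and 0.845 to 1.99 CPM in WT (log2 fold change 3.06 ± 0.20 SE), while NCU09185, NCU09187 and NCU09188 rose by 1.12 ± 0.11, 1.65 ± 0.21 and 1.47 ± 0.21 SE. The run was picked after its values were seen. The library kit is not stated to keep the strand, so reads from overlapping neighbours cannot be told apart.

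The largest falls after *msn-1* were those of NCU02022, NCU02061 and NCU01957, 3 genes of chromosome I with no function in the tables used. NCU02022 had 1.11, 1.52 and 1.85 CPM (lowest, median and highest) in ΔMSN1 and 10.1, 13 and 17.7 CPM in WT (log2 fold change −3.18 ± 0.16 SE, adjusted p = 3.54e-06). NCU02061 had 0.525, 0.983 and 1.37 CPM in ΔMSN1 and 5.41, 9.27 and 11.6 CPM in WT (−3.02 ± 0.22 SE, adjusted p = 5.11e-05). Neither gene reached in any ΔMSN1 culture the level of the lowest WT culture. NCU01957, next to the mating type genes, had 1.17, 1.76 and 2.75 CPM in ΔMSN1 and 5.65, 10.7 and 27.0 CPM in WT (−2.66 ± 0.28 SE, adjusted p = 0.000348). Among the other large falls, NCU10031, a monooxygenase, was at 16.4 to 77.0 CPM in ΔMSN1 and 99.5 to 169 CPM in WT (−1.50 ± 0.29 SE, adjusted p = 0.0116), and NCU08438 at 7.18 to 37.9 CPM in ΔMSN1 and 47.3 to 111 CPM in WT (−2.13 ± 0.30 SE, adjusted p = 0.00190).

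**Figure D2:**
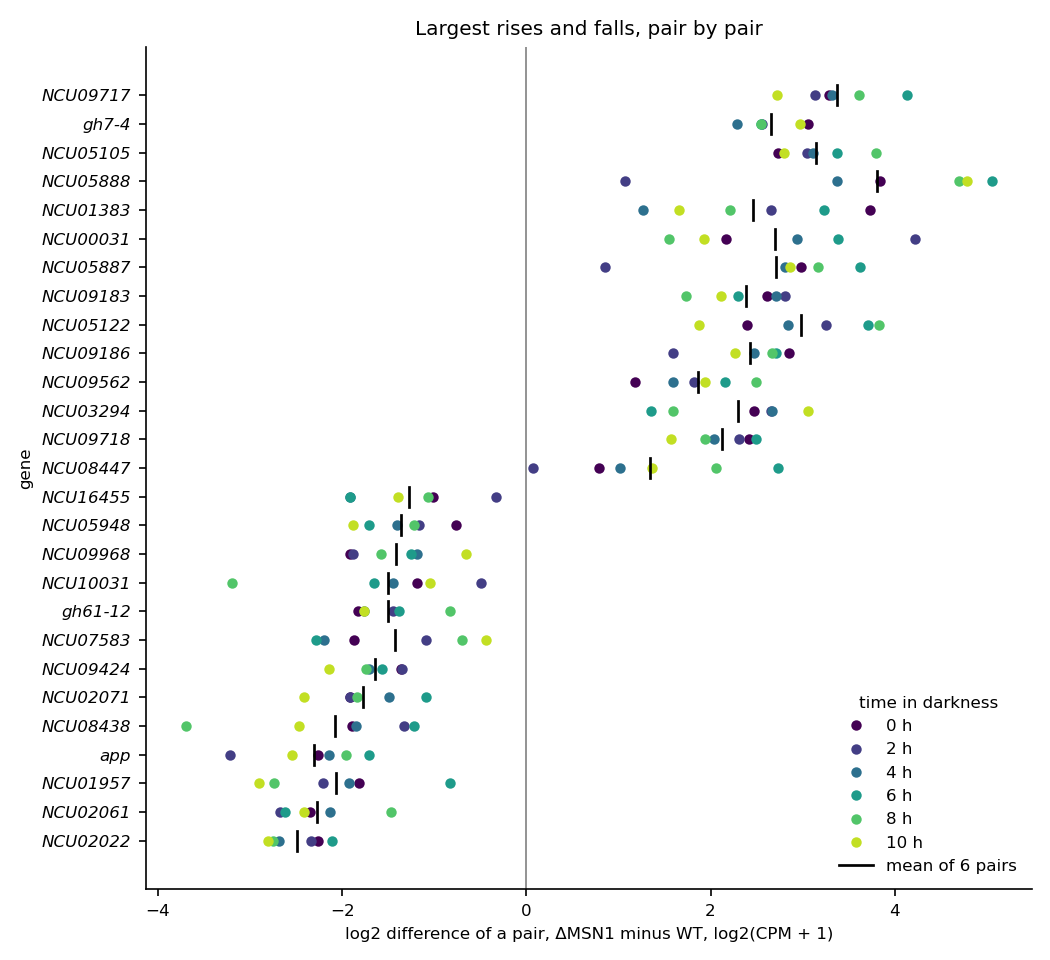
Difference of each pair in log2(CPM + 1), ΔMSN1 minus WT (horizontal axis), for the 14 largest rises and the 13 largest falls after *msn-1* (vertical axis), with points coloured by time and a bar at the mean of 6 pairs. Genes were chosen to go the same way in all 6 pairs, so all points of a gene lie on the same side of 0. NCU05888 and NCU05887 have their smallest difference at 2 h.

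Of the mating type genes, *mat A-1* differed between the strains. In this fungus the mating type locus of chromosome I holds either the A or the a form, and the *mat A* genes are carried by strains of the A form. *mat A-1*, the master regulator of that form, had 0 counts in all 6 ΔMSN1 libraries and was above 0 in all 6 WT libraries, at 0.856 to 1.87 CPM (48 estimated counts in all), so its level was at least 19.3-fold lower in ΔMSN1. The labels give no mating type for either strain. At these levels it lay under the filter and was not among the genes tested. *mat A-2* and *mat A-3* had 0 counts in ΔMSN1 and 1 and 2 in WT, which is under the floor of 3 counts. The pheromone genes *ccg-4* and *mfa-1* were also at or under the floor in both strains, and the receptor genes *pre-1* (0.876 ± 0.197 CPM in ΔMSN1 and 0.786 ± 0.258 CPM in WT, SD, n = 6 each) and *pre-2* (0.420 ± 0.121 and 0.281 ± 0.301 CPM) lay within each other's spread.

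Lower genes were frequent around that locus. Of the 100 tested genes nearest to *mat A-1*, 11 were lower in ΔMSN1 (11.0%, against 3.10% of all tested genes) and 1 was higher. Of the 200 nearest, 19 were lower (9.50%) and 2 higher. Around *msn-1*, which lies 265 tested genes further along the chromosome, 0 of the 100 nearest were lower and 2 higher. Of the 8 genes at least 4-fold lower in ΔMSN1, 4 lay within 100 tested genes of *mat A-1*. NCU01957 adjoined it. NCU02022, NCU02061 and NCU02071 lay at −54, −83 and −94 tested genes from it, all on the side away from *msn-1*. NCU02071 had 1.76 to 4.07 CPM in ΔMSN1 and 9.44 to 18.5 CPM in WT (log2 fold change −2.09 ± 0.20 SE, adjusted p = 0.000174).

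The smaller falls of that stretch included *gcy-2* (63.9 against 116 CPM, log2 fold change −0.86), *mus-42* (1.94 against 3.17 CPM, −0.69) and *eat-5* (527 against 727 CPM, −0.45), each the mean of ΔMSN1 against that of WT and named after its values were seen; *eat-5* did not pass without 0 h, 4 h, 6 h or 10 h or with library totals. In windows of 50 tested genes, the one from NCU02055 to NCU01992 had 7 lower genes, more than any other of the 142 windows of the genome. That window does not hold *mat A-1*. The one that does, from NCU01991 to NCU01927, had 5, as had windows elsewhere on chromosome I and on V and VII. For higher genes, the windows of chromosome VI from NCU10048 to NCU17135 and from NCU05151 to NCU05068 had 9 and 8. By chromosome, 3.43% of the tested genes were lower on I and 5.63% on VII. The count of 11 among the 100 nearest was 4 without the pair of 0 h, 3 without 4 h, 5 without 6 h and 4 with library totals. Lower calls over all tested genes fell as well, from 226 to 121, 75, 119 and 95 in the same alternatives. NCU02022, NCU02061, NCU01957 and NCU02071 passed under every alternative they were tested in. The part of the mating type difference in these values was not tested.

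**Figure D3:**
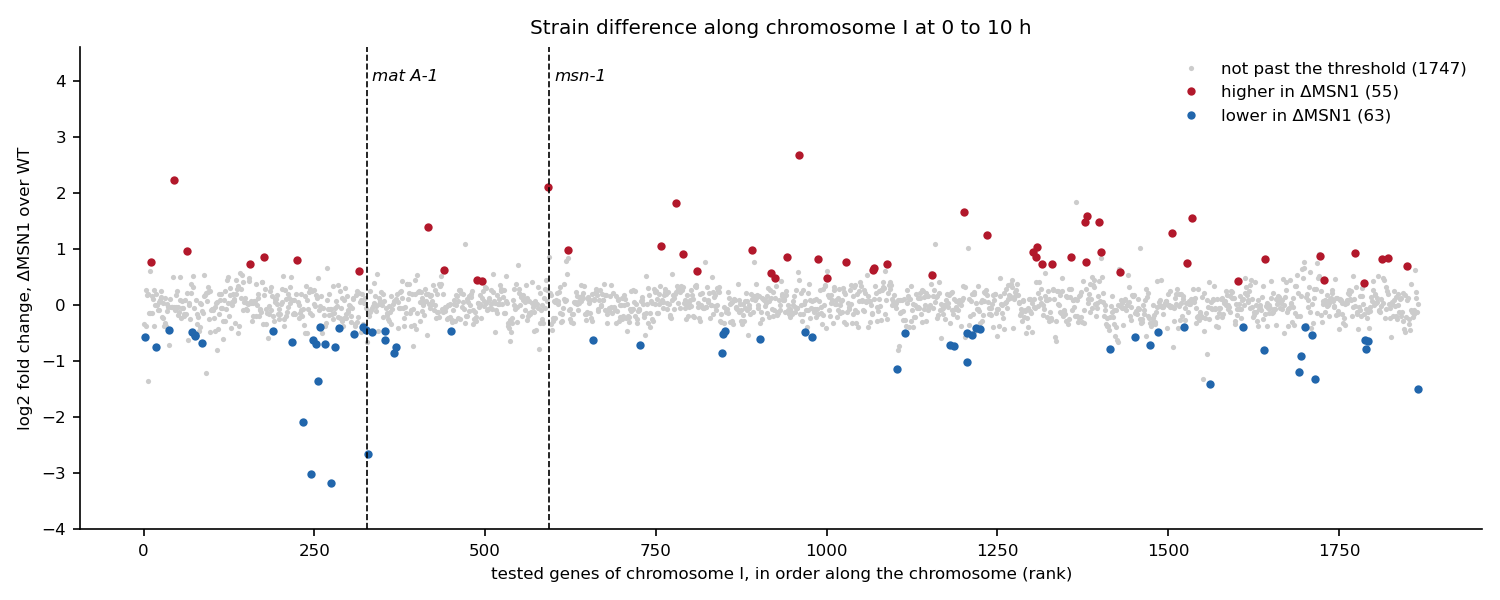
Log2 fold change, ΔMSN1 over WT (vertical axis), of the tested genes of chromosome I in their order along the chromosome (horizontal axis, rank), with *msn-1* itself left out. The 4 genes below −2 all lie within 100 tested genes of the dashed line of *mat A-1*, with NCU02022, NCU02061 and NCU02071 on the side away from *msn-1*. Around the line of *msn-1* there are few calls.

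Of 8 genes of gluconeogenesis, the glyoxylate cycle and fermentation 1 passed (12.5%, against 6.73% of all tested genes). *acu-6*, which encodes phosphoenolpyruvate carboxykinase, the enzyme of the first committed step of gluconeogenesis, had 44.2, 123 and 203 CPM (lowest, median and highest) in ΔMSN1 and 22.0, 29.2 and 48.3 CPM in WT. It was higher in ΔMSN1 in all 6 pairs, although its lowest ΔMSN1 value, at 6 h, overlapped with WT (log2 fold change 1.78 ± 0.25 SE, adjusted p = 0.00194). The other 7 did not pass: *fbp-1* (fructose bisphosphatase) had a log2 fold change of −0.23, *acu-3* (isocitrate lyase) 0.01 and *cfp* (pyruvate decarboxylase) −0.27. None of 9 glycolytic genes passed, and their log2 fold changes ran from −0.39 (*emp-7*) to −0.02 (*emp-3*) with a median of −0.23, which was −0.01 with library totals and turned to 0.08 without the pairs of 6 and 8 h. In glycogen and trehalose metabolism 0 of 5 passed, among them *gsy-1* (glycogen synthase, −0.03) and *gnn* (glycogenin, 0.37). With 6.73% of all tested genes called, lists of 9 and 5 genes can hold 0 calls without differing from the rest.

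Of 6 tested sugar transporters and carbon regulators 0 passed, against 6.73% of all tested genes. The largest value was that of *hgt-1*, a glucose transporter, with a log2 fold change of 2.16 (adjusted p = 0.0603), which came from 1 culture: it stood at 18.1 CPM in ΔMSN1 at 8 h and at 0 to 1.31 CPM in the other ΔMSN1 cultures, against 0.171 to 1.66 CPM in WT. NCU05116, annotated as a phosphoglycerate mutase, was higher throughout, with 56.2, 67.8 and 81.8 CPM in ΔMSN1 and 20.2, 26.8 and 27.9 CPM in WT (log2 fold change 1.41 ± 0.11 SE, adjusted p = 5.51e-05). It is one of the third-harmonic genes of the study, not of the list of glycolytic genes.

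Enzymes that break down polysaccharides changed in both directions. Of 84 tested glycoside hydrolase and esterase genes, 8 were higher and 9 lower (20.2% together, against 6.73% of all tested genes), with a median log2 fold change of −0.01. Besides *gh7-4*, *gh5-1* had 3.44, 3.72 and 4.10 CPM in ΔMSN1 and 0.832, 1.09 and 2.05 CPM in WT (1.48 ± 0.22 SE, adjusted p = 0.00313). *neg-1*, a glycosyl hydrolase gene, and *gh18-5*, an endochitinase, were higher by 1.35 and 1.08 on the log2 scale. On the lower side *gh61-12*, whose product holds a cellulose binding domain, had 16.0, 25.9 and 36.0 CPM in ΔMSN1 and 42.2, 77.3 and 111 CPM in WT (−1.54 ± 0.14 SE, adjusted p = 0.000155). *gh61-9* of the same family had 12.9, 18.8 and 24.3 CPM in ΔMSN1 and 28.7, 38.8 and 50.3 CPM in WT (−1.10 ± 0.13 SE, adjusted p = 0.000682).

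Both called genes of family 28 were lower. *gh28-1*, a polygalacturonase, had 775 to 1570 CPM in ΔMSN1 and 2832 to 6134 CPM in WT (log2 fold change −1.42 ± 0.22 SE, adjusted p = 0.00427), and *gh28-2*, an exopolygalacturonase, 5.10 to 26.7 CPM in ΔMSN1 and 18.6 to 35.4 CPM in WT (−1.02 ± 0.24 SE, adjusted p = 0.0327). Family 61 had called genes on both sides, since *gh61-5* was higher by 0.50 on the log2 scale. Of the 79 to 84 genes of the list that were tested when 1 pair was left out, 4 to 10 were higher and 5 to 8 lower, with 4 higher without 0 h, 4 h or 8 h, 5 higher without 6 h, and 5 lower without 4 h or 6 h. With library totals 14 were higher and 5 lower. Over all tested genes the calls were 159 higher and 121 lower without 0 h and 133 and 75 without 4 h. They were 176 and 119 without 6 h, 173 and 142 without 8 h, and 827 and 95 with library totals.

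Of 17 tested cell wall protein genes 0 were higher and 3 lower (17.6%, against 3.10% of all tested genes): *acw-5* averaged 1446 ± 416 CPM in ΔMSN1 and 2237 ± 549 CPM in WT (SD, n = 6 each; log2 fold change −0.64, adjusted p = 0.0196), *ncw-5* 1846 ± 557 and 3382 ± 1723 CPM (−0.79, adjusted p = 0.0325) and *ncw-6* 68.1 ± 20.8 and 87.8 ± 18.6 CPM (−0.39, adjusted p = 0.0340). All 3 overlapped between the strains, and 1 of the 3 calls was kept in each of the fits without 0 h, 4 h, 6 h or 8 h and 0 with library totals. Of 7 genes of chitin and glucan synthesis 1 passed (14.3%, against 6.73%): *chs-6*, a chitin synthase, was higher (2.23 to 3.89 CPM in ΔMSN1 and 0.986 to 1.96 CPM in WT, log2 fold change 1.05 ± 0.21 SE, adjusted p = 0.0169), a call lost without the pair of 0 h (adjusted p = 0.0533) or 4 h (adjusted p = 0.0684) and with DESeq2's Wald test (adjusted p = 0.0913). *pod-2*, named for a polarity defect, had 36.0, 41.6 and 47.8 CPM in ΔMSN1 and 13.7, 14.3 and 17.5 CPM in WT, well apart (1.49 ± 0.12 SE, adjusted p = 5.51e-05).

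Of 9 ergosterol genes and of 9 amino acid permeases 1 each passed (11.1%, against 6.73% of all tested genes). Of the ergosterol genes, *erg-13* (hydroxymethylglutaryl-CoA synthase) was lower, at 206 to 548 CPM in ΔMSN1 and 446 to 708 CPM in WT (log2 fold change −0.67 ± 0.14 SE, adjusted p = 0.0199; 0.0566 without 6 h and 0.0540 without 8 h). Of the permeases, *aap-22* was lower, at 27.6 to 63.5 CPM in ΔMSN1 and 58.7 to 96.3 CPM in WT (−0.77 ± 0.16 SE, adjusted p = 0.0196; 0.0560 without 4 h, 0.0571 without 8 h and 0.0658 with library totals). None of 10 metal and ion transporters, 9 arginine, 11 nitrogen control and 8 sulfur control genes passed, against 6.73% of all tested genes. At that share, lists of 8 to 11 genes can hold 0 calls without differing from the rest. The cultures held arginine, and the log2 fold changes of the arginine genes ran from −0.47 (*arg-1*) to 0.50 (*ota*).

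Of 10 tested genes of cytosolic ribosomal proteins 0 were higher and 3 lower (30.0%, against 3.10% of all tested genes), calls that moved with the pairs included. All 10 had a log2 fold change below 0, between −0.60 and −0.28, with a median of −0.39 against 0.02 over all tested genes, and those that passed were *crp-54*, *crp-56* and *crp-15*. *crp-54* averaged 773 ± 81.2 CPM in ΔMSN1 and 1180 ± 183 CPM in WT (SD, n = 6 each; −0.60 ± 0.13 SE, adjusted p = 0.0206). The 3 calls were lost without the pair of 0 h, 4 h, 6 h or 8 h, and with library totals the 10 genes lay between −0.38 and −0.06 with 1 passing. The 10 genes of ribosome biogenesis (median −0.08) and the 9 of mitochondrial ribosomal proteins (median 0.01) held 0 calls, against 6.73% of all tested genes.

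The core clock did not differ detectably. *frq*, the negative element of the clock, stood at 24.3 CPM in ΔMSN1 and 19.3 CPM in WT at lights off, at 4.24 and 3.67 CPM after 2 h, and at 8.74 and 12.2 CPM at 10 h. The strains followed the same course, with a fall in the first 2 h and a rise by 10 h, and the log2 fold change over the 6 pairs was −0.00 ± 0.14 SE (adjusted p = 0.994). *frh*, the helicase bound to FRQ, had −0.03 ± 0.14 SE and *ck-1a*, a casein kinase that phosphorylates FRQ, −0.00 ± 0.09 SE. The white collar genes *wc-1* and *wc-2*, the transcription factors that activate *frq*, had 0.18 ± 0.15 SE and 0.23 ± 0.11 SE, and *fwd-1*, the F-box protein that marks FRQ for breakdown, 0.21 ± 0.17 SE. None of the 6 passed (adjusted p of 0.244 to 0.994), against 6.73% of all tested genes, a share at which 6 genes can hold 0 calls.

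*vvd* and *cry* were far lower at 2 h than at lights off in the cultures of both strains. *vvd*, a blue light photoreceptor gene, had 729 CPM in ΔMSN1 and 989 CPM in WT at 0 h, and 29.1 and 37.1 CPM at 2 h. *cry*, the cryptochrome gene, had 86.3 CPM in ΔMSN1 and 92.2 CPM in WT at 0 h and 1.59 and 1.96 CPM at 2 h. Of 11 tested light response genes 1 passed (9.09%, against 6.73% of all tested genes), *nop-1*, which encodes an opsin. It had 14.8, 17.3 and 31.6 CPM in ΔMSN1 and 42.5, 46.3 and 53.3 CPM in WT (log2 fold change −1.35 ± 0.13 SE, adjusted p = 0.000218). *nop-1* did not overlap, and its highest ΔMSN1 value was that of 8 h. *al-1*, which encodes phytoene desaturase of carotenoid synthesis, was lower in all 6 pairs but did not pass (−0.87, adjusted p = 0.0638).

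Of 6 clock output regulators and outputs 1 passed (16.7%, against 6.73% of all tested genes): *ccg-1*, a clock-controlled gene, with 12034, 15095 and 22228 CPM in ΔMSN1 and 19166, 21249 and 37226 CPM in WT (log2 fold change −0.62 ± 0.12 SE, adjusted p = 0.0108). Within each pair ΔMSN1 was lower, and both strains had their highest values at 8 and 10 h. The call was lost without the pair of 0 h (adjusted p = 0.0558) or 4 h (0.0546) and without the time factor (0.0745). The regulators *csp-1* (0.05), *adv-1* (0.37), *rco-1* (0.06) and *asl-1* (−0.16), given as log2 fold changes, did not pass.

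Stress genes are the classical targets of Msn2 in yeast. None of 10 heat shock genes passed, against 6.73% of all tested genes. Their log2 fold changes ran from −0.32 (*hsp30*) to 0.29 (*hsp70-3*), with −0.28 for *hsp88*. Of 9 genes of oxidative defence 1 passed (11.1%, against 6.73% of all tested genes). *cat-2*, a catalase-peroxidase, was higher, at 105, 176 and 226 CPM (lowest, median and highest) in ΔMSN1 and 101, 117 and 145 CPM in WT (0.49 ± 0.12 SE, adjusted p = 0.0383). It was higher in all 6 pairs, yet the strains overlapped and the call was lost without 0 h (adjusted p = 0.112), 4 h (0.153), 8 h (0.0954) or 10 h (0.0613). *sod-1*, a superoxide dismutase, had −0.59 (adjusted p = 0.0528). Of 13 genes of MAP kinase and cAMP signalling 0 passed, the catalytic subunits *pkac-1* (0.00) and *pkac-2* (0.05) and the osmosensing kinases *os-1* (0.22) and *os-2* (0.05) among them. The 8 histone genes and 3 tested genes of heterochromatin silencing held 0 calls. With 6.73% of all tested genes called, none of these lists of 3 to 13 genes is shown to be spared.

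Markers of other cell states were examined because hyphae in liquid can turn to conidiation or sexual development. Of 8 tested conidiation genes 0 passed, against 6.73% of all tested genes. Their log2 fold changes went both ways, from −1.13 to 0.48 with a median of −0.01, and 4 of the 8 were below 0. The lowest was *eas*, the hydrophobin of the conidial coat. It had 673 to 4073 CPM in ΔMSN1 and 3058 to 5641 CPM in WT (log2 fold change −1.13, adjusted p = 0.117). The summed level of 5 conidiation markers ran from 1440 to 5019 CPM in ΔMSN1 and from 4132 to 6641 CPM in WT, and none of the 5 was at 0. *app*, the abundant perithecial protein of sexual development, was highest at 0 h and lowest at 10 h in both strains and was lower in ΔMSN1 in all 6 pairs, at 87.2 CPM in ΔMSN1 and 421 CPM in WT at 0 h and at 4.32 and 30.0 CPM at 10 h (−2.36 ± 0.19 SE, adjusted p = 5.51e-05). The summed level of 3 sexual development markers (*app*, *asd-1* and *asd-3*) was 346 to 1386 CPM in ΔMSN1 and 1572 to 2237 CPM in WT, with no overlap. Most of that sum was *asd-1*, which did not pass (318 to 1297 CPM in ΔMSN1 and 1241 to 2206 CPM in WT, log2 fold change −0.88, adjusted p = 0.0817), and *asd-3*, under the filter, averaged 1.62 ± 0.597 CPM in ΔMSN1 and 1.04 ± 0.306 CPM in WT (SD, n = 6 each). The part of such cells in the other differences was not tested, and fewer cells of a kind cannot be told apart from less RNA per cell in bulk cultures.

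**Figure D4:**
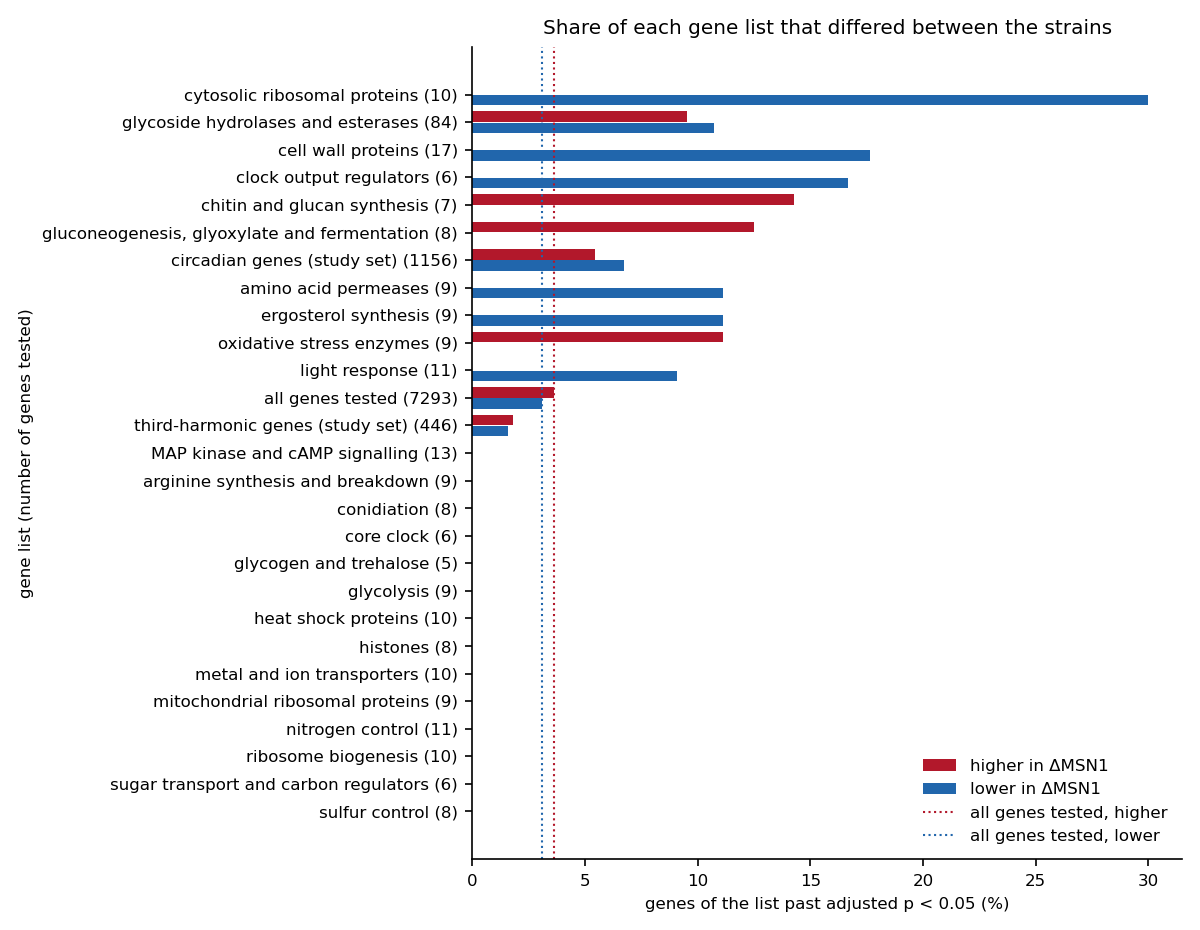
Share of the tested genes of each list past an adjusted p of 0.05 (horizontal axis, percent), higher in ΔMSN1 in red and lower in blue, with the shares over all tested genes as dotted lines at 3.63% and 3.10%. Lists are on the vertical axis with the number of genes tested, which is 5 to 17 for most, so that 1 gene can make up over 10% of a list.

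The study defined sets of rhythmic genes in WT, third-harmonic ones with a period near a fraction of the circadian one and circadian ones. It drew these sets from its first WT time course and later repeated the sequencing on fresh WT cultures. The WT libraries used here carry "new" in their labels, but the run they belong to is not stated outright. The study reports that the third-harmonic rhythms turned to a longer period in ΔMSN1. The fit used here compares mean levels over 0 to 10 h, so a change of period or phase was not tested. Of 446 tested third-harmonic genes 8 were higher and 7 lower (3.36%, against 6.73% of all tested genes), with a median log2 fold change of 0.03. They were 4 and 2 without the pair of 0 h, 3 and 2 without 4 h, 7 and 4 without 6 h, 5 and 6 without 8 h, 16 and 1 with library totals, and 10 and 14 with the trend on gene length removed. The third-harmonic gene with the largest rise was NCU12021, a hypothetical protein, at 6.09 to 20.7 CPM in ΔMSN1 and 2.58 to 5.71 CPM in WT (1.53 ± 0.26 SE, adjusted p = 0.00612). NCU04603, also hypothetical, was higher too, at 288 to 889 CPM in ΔMSN1 and 159.8 to 293 CPM in WT (1.39 ± 0.13 SE, adjusted p = 0.000182). NCU06062, annotated as a protein of siderophore synthesis, was lower, at 38.1 to 57.6 CPM in ΔMSN1 and 62.1 to 94.5 CPM in WT (−0.65 ± 0.10 SE, adjusted p = 0.00354; 0.0558 with library totals). The largest fall that passed was that of NCU07583, a hypothetical protein, at 1.46 to 5.5 CPM in ΔMSN1 and 4.78 to 12.8 CPM in WT (−1.62 ± 0.31 SE, adjusted p = 0.0116). Of 1156 tested circadian genes, 63 were higher and 78 lower (12.2%), with a median of −0.02, *pod-2* and NCU05122 among the rises and *app* and NCU02061 among the falls. These counts were 40 higher and 50 lower without the pair of 0 h, 31 and 30 without 4 h, 45 and 49 without 6 h, 40 and 51 without 8 h, and 162 and 39 with library totals. Over all tested genes the same alternatives gave 159 and 121, 133 and 75, 176 and 119, 173 and 142, and 827 and 95. With the trend on gene length removed they were 304 and 289.

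The strain difference was tested for a drift over the 10 h, and 0 genes passed, with edgeR and with limma-voom, while 450 had an unadjusted p under 0.05. The smallest adjusted p was 0.255, of NCU00829, a ferric reductase. Its log2 difference by pair was 0.71, 0.46, −0.34, −0.90, −1.50 and −1.48 at 0, 2, 4, 6, 8 and 10 h, with WT values going up over time (8.73 CPM at 0 h and 30.5 CPM at 10 h) and ΔMSN1 values between 8.52 and 17.5 CPM. NCU07053, an aldehyde dehydrogenase, had differences of 0.14 at 0 h and −1.69 at 10 h (adjusted p = 0.768). Without the pair of 10 h, 40 genes passed. On simulated data the test found 49.3% of genes with a 4-fold drift over the 10 h and 4.48% of those with a 2-fold drift, so that most drifts of 2-fold were not detectable with these 12 libraries.

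The strain difference of 0 to 10 h was compared with that of 12 to 22 h, which rests on 12 other libraries. Fitted alone, those later times had 355 genes higher in ΔMSN1 (4.85% of those tested) and 404 lower (5.52%). Of the 265 genes higher at 0 to 10 h, 251 (94.7%) kept the sign and 146 (55.1% of them, and 41.1% of the 355) passed again. Of the 223 lower genes tested in both, 210 (94.2%) kept the sign and 83 (37.2% of them, and 20.5% of the 404) passed again. The median log2 fold change of the higher genes was 0.86 at 0 to 10 h and 0.68 at 12 to 22 h, and that of the lower ones −0.65 and −0.43. Over all 7256 genes tested in both, 70.3% had the same sign.

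Among the genes that passed again were some of the largest rises, such as *gh7-4* (log2 fold change 4.72 at 0 to 10 h and 5.15 at 12 to 22 h) and NCU09717 (4.75 and 4.84). Of the falls, NCU02022 (−3.18 and −2.79), *app* (−2.36 and −2.66) and *nop-1* (−1.35 and −1.32) passed again. *acu-6* had 1.78 and 2.24, and *pod-2* 1.49 and 1.79. Others of the largest rises did not pass at 12 to 22 h: NCU05888 (4.09 and 1.53, adjusted p = 0.113 at 12 to 22 h), NCU05887 (3.40 and 0.49, adjusted p = 0.610), NCU00031 (3.42 and 0.30, adjusted p = 0.700) and NCU01383 (3.75 and 0.92, adjusted p = 0.535). For these 4 genes the test of the difference between the spans did not pass either, so that they are not shown to be particular to 0 to 10 h.

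That test, a term for strain by span over all 24 libraries, called 14 of 7309 genes (0.192%), with 635 at an unadjusted p under 0.05. NCU05855, annotated as an O-methyltransferase, had 70.6, 98.9 and 143 CPM (lowest, median and highest) in ΔMSN1 and 20.6, 24.2 and 36.7 CPM in WT at 0 to 10 h. At 12 to 22 h it had 65.8, 88.5 and 109 CPM in ΔMSN1 and 40.0, 61.4 and 92.2 CPM in WT. The rise in ΔMSN1 was thus 1.90 on the log2 scale in the first span and 0.48 in the second (difference 1.42 ± 0.19 SE, adjusted p = 0.00588), and it was the WT level that went up. NCU06170, a hypothetical protein, changed side: it was lower in ΔMSN1 at 0 to 10 h (139 to 287 CPM in ΔMSN1 and 275 to 549 CPM in WT) and higher at 12 to 22 h (226 to 397 CPM in ΔMSN1 and 161 to 235 CPM in WT; difference −1.52 ± 0.21 SE, adjusted p = 0.00588).

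For several of the 14 genes the strains overlapped at 0 to 10 h and were apart later. *spr-7*, which encodes proteinase T, had 13.4 to 38.2 CPM in ΔMSN1 and 21.7 to 30.6 CPM in WT at 0 to 10 h (log2 fold change −0.30), and 14.3 to 20.1 CPM in ΔMSN1 and 62.2 to 383 CPM in WT at 12 to 22 h (−3.01). NCU05079, annotated as a peptide transporter, had 4.49 to 14.0 CPM in ΔMSN1 and 4.63 to 21.3 CPM in WT at 0 to 10 h (−0.18), and 2.29 to 5.73 CPM in ΔMSN1 and 17.6 to 38.3 CPM in WT at 12 to 22 h (−2.75). In both genes the ranges of ΔMSN1 and WT overlapped at 0 to 10 h, and at 12 to 22 h all ΔMSN1 values lay below all WT values. NCU09844, an amidohydrolase, was higher in ΔMSN1 in both spans, by 0.78 and 1.90. Leaving out 1 of the early pairs gave 7 genes without 0 h, 9 without 2 h, 7 without 4 h, 25 without 6 h, 19 without 8 h and 9 without 10 h.

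**Figure D5:**
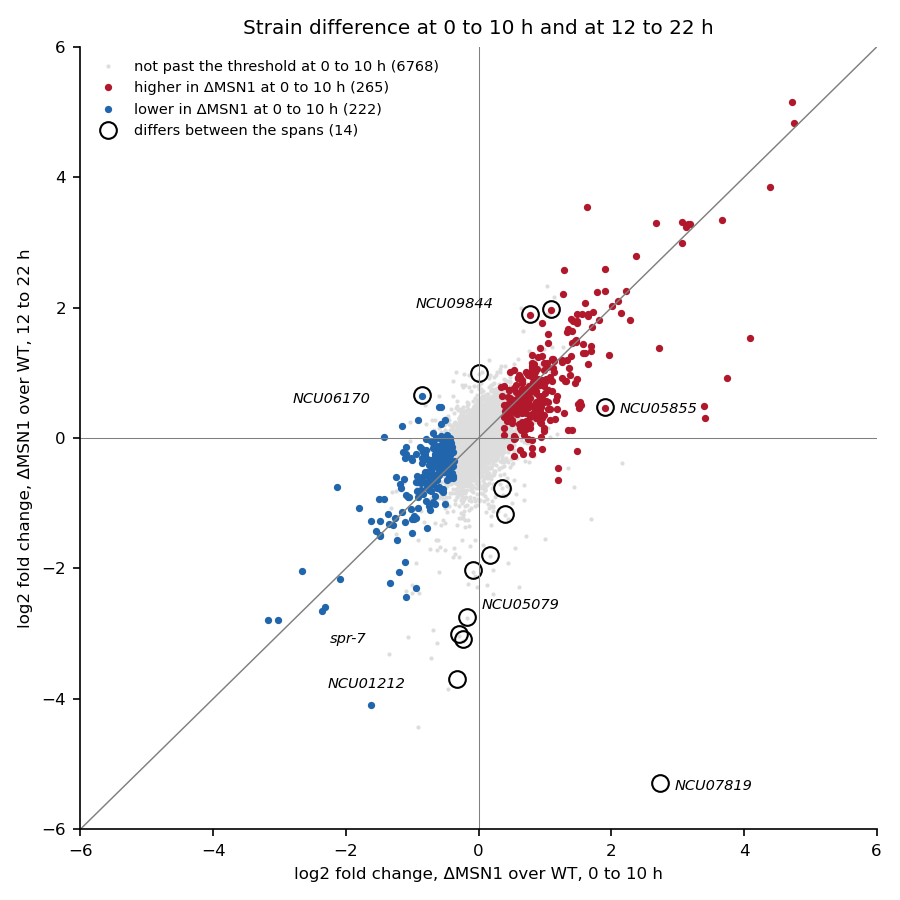
Log2 fold change, ΔMSN1 over WT, at 12 to 22 h (vertical axis) against that at 0 to 10 h (horizontal axis) for genes tested in both, *msn-1* left out, with circles on the 14 genes whose strain difference differed between the spans (values of the fit of all 24 libraries). Most coloured points keep their side of 0, and *spr-7*, *NCU05079* and *NCU01212* lie near 0 at 0 to 10 h and below −2.5 at 12 to 22 h.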

How the data were processed

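RNA was sequenced from 24 cultures (poly(A) libraries, NEBNext), of which 12 are those of 0 to 10 h and 12 those of 12 to 22 h. The authors deposited estimated counts per gene made with kallisto 0.43.1. The genome build and how transcripts were combined into genes are not given in the sources used here, and 0 value columns were left without a sample. Estimated counts were rounded, scaled by TMM, and 7293 of 9730 genes that averaged 2 CPM or more were kept. The strain term was tested with edgeR 4.0.16 (quasi-likelihood F test, R 4.3.3) with time as a factor, Benjamini-Hochberg adjusted over all genes tested. A strain by time slope and, over 24 libraries, a strain by span term were tested likewise. Adjusted p-values are edgeR's unless another tool is named. limma 3.58.1 (voom), DESeq2 1.42.0 and other scalings, filters and omitted pairs served as alternatives. In counts simulated for this comparison, 47.8% of 1.5-fold, 97.0% of 2-fold and 100% of 3-fold changes were recovered.

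Genes were named by rule: *msn-1*, the mating type and core clock genes, the 14 largest rises and falls past the threshold that went the same way in all 6 pairs with a mean of 5 CPM or more in one strain, up to 4 called members of each list, and the 6 and 8 genes of smallest p in the drift and span tests. Other genes were named after their values were seen. The members and lists were chosen with earlier results of these data known. Gene names came from the RefSeq gene table, which held 9729 of the genes, and annotations from the study's supplementary gene sheets. A trend of level on gene length differed between libraries and was removed in 1 alternative. Lane, RNA quality and mating type were not modelled.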

Additional observations from a re-analysis of the deposited data

Results flagged for a closer look

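In 121 groups of 6 libraries, each a named gene in 1 strain on a log2 scale, the gap of the outermost library to the next was set against the range of the group. It exceeded Dixon's critical value in 10 groups. Chance gives about 1 in 20 for replicates of 1 condition. The 6 libraries of a group are different times, so a change over time can exceed it too, and the rates are not comparable. The ratio was 0.674 for NCU10031 in ΔMSN1 (16.4 CPM at 8 h, against 46.8 to 77.0 CPM at the other times), 0.723 for *nop-1* in ΔMSN1 (31.6 CPM at 8 h, against 14.8 to 18.3 CPM) and 0.681 for *crp-15* in ΔMSN1 (422 CPM at 2 h, against 542 to 610.4 CPM).

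In WT the ratio was 0.831 for NCU05887 (5.87 CPM at 2 h, against 0.422 to 0.856 CPM) and 0.700 for its neighbour NCU05888 (16.4 CPM at 2 h, against 0.531 to 2.18 CPM). It was 0.712 for *wc-1* (8.45 CPM at 0 h, against 5.62 to 6.34 CPM) and 0.647 for NCU04816 (33.9 CPM at 0 h, against 43.9 to 50.5 CPM). The ribosomal protein genes *crp-54* (0.698, 833 CPM at 10 h against 1152 to 1325 CPM) and *crp-56* (0.717, 1088 CPM at 10 h against 1427 to 1589 CPM) were low in the same WT library, and NCU05116 had a ratio of 0.681 (20.2 CPM at 6 h, against 25.2 to 27.9 CPM).

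The strain difference of 8 named genes differed between 0 to 10 h and 12 to 22 h by edgeR's test of strain by span. These genes were named for their small p in that same test, so their passing it is no further result. The first span minus the second was 1.42 on the log2 scale for NCU05855, 2.57 for NCU05079, 2.71 for *spr-7*, 3.37 for NCU01212 and 1.12 for NCU00306. It was −1.52 for NCU06170 and −1.12 for NCU09844. The value of 8.04 for NCU07819 rests on log2 fold changes of 2.74 (adjusted p = 0.113) and −5.30. Its medians at 0 to 10 h were 0.376 CPM in ΔMSN1 and 0.153 CPM in WT, under the filter of that span. In WT it had 11.7, 56.6 and 36.7 CPM at 16, 18 and 20 h and 0 to 0.765 CPM at 12, 14 and 22 h. The value is therefore uncertain.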

How the results depend on the processing

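No call of the 52 named genes that passed changed direction under any alternative run. Without TMM the count of higher genes was 827 and that of lower genes 95, and without the pairs of 6 and 8 h they were 173 and 128, alternatives chosen after seeing the data. Leaving out 1 pair gave 133 to 331 higher genes, 75 to 236 lower genes, 0 to 40 genes with a drift and 7 to 25 that differed between the spans. DESeq2 (250 higher and 297 lower), limma-voom (269 and 235) a minimum of 5 CPM (231 and 201) and removal of the trend on gene length (304 and 289, chosen after seeing the data) stayed within 1.5 times. With the values multiplied by gene length, 248 genes were higher and 216 lower. The block by time is the pairing of the design. Same-time libraries deviated together with correlations of −0.202 to 0.416, so the shared time was not shown to pair the cultures. With no replicate block 313 genes were higher and 211 lower, of which 242 and 155 were shared, 15 differed between the spans, and *ccg-1*, *cat-2*, *erg-13*, *acw-5*, *ncw-5* and *ncw-6* did not pass. Of the 52 genes, 40 to 49 passed when 1 pair was left out and 42 without TMM. At this depth and spread, 1.5-fold changes were found in 47.8% of simulated cases. With 1 culture per strain and time, 1 knockout strain and the lane named for ΔMSN1 alone, the strain difference cannot be told apart from these.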
